A study of Mus musculus with 7 samples.

Results

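The data described here are the stretches of other chromosomes that 4C-seq called as contacts of the *Gata3* promoter in mouse CD4+ T cells. *Gata3* lies on chromosome 2, and the members are all called regions off chromosome 2 in the 4 region lists made with *Gata3*-TSS as bait. There were 444 such regions among the 1153 regions called in the whole series, which also holds 3 lists from a bait inside the mG900 region, a distal stretch of chromosome 2 downstream from *Gata3*. The members were defined by chromosome and bait alone, in a rule written with earlier results of these data known. Regions that overlapped by at least 1 base were then joined across the 4 lists into 337 loci. A group of 3 loci, at chr9:3002076-3120495, chr11:3120377-3348228 and chr14:19332049-19524654, was set apart as repeat-prone by the same rule. Counts that include them are also given without them.

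The 4 libraries came from WT naive CD4+ T cells, taken from lymph nodes and spleen, from WT Th0 cells and WT Th2 cells, and from Th2 cells of mG900KO mice. Th0 and Th2 cells were grown from naive CD4+ T cells for 3 d on bound anti-CD3ε with anti-CD28 in solution, Th0 cells with nothing further, Th2 cells with IL-4 and anti-IFN-γ. The methods name C57BL/6 as the mouse strain, and the age and sex of the mice are not stated in the labels used here. The mG900KO mice were made by cutting on both sides of the mG900 region with Cas9 in zygotes, so the deletion is not limited to T cells. Each condition was 1 library of a cell pool, whose number of animals is not stated in the labels. No replicate spread existed, no test between conditions was possible, and every difference below is a difference between these libraries. In the called regions of chromosome 2, 77.8% of the deleted interval was covered in WT Th2 cells and 0% in each of the other 3 *Gata3*-TSS lists, so this coverage does not check the mG900KO label.

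GATA3 is the zinc finger transcription factor that directs naive CD4+ T cells toward the Th2 fate and is also needed for T cell development. 4C-seq fixes chromatin with formaldehyde, cuts it with NlaIII at its CATG sites, ligates ends that lie close together and sequences what was joined to the bait. Most ligations of a bait fall on its own chromosome, since each chromosome occupies a territory of its own, and contacts with other chromosomes are spread thinly and are called only over wide stretches in which many fragments were caught. Active, gene-dense chromatin of different chromosomes tends to lie together in the nucleus, apart from inactive chromatin. A called region is therefore a wide neighbourhood seen more often than its surroundings over a pool of cells, and not a contact between a pair of elements.

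The first 60 bases at the left edge of the loci found in all 4 lists show what these edges are. They are shown because each begins with the NlaIII site, CATG in capitals, at which the called region starts, and because they differ in how often they occur in the genome. Sequences are the plus strand of GRCm38 (mm10), read 5′ to 3′ from RefSeq. The first group holds the 5 loci not set apart, at chr6:35031633-35031692, chr9:48416165-48416224, chr13:30546691-30546750, chr14:100413513-100413572 and chr17:12694472-12694531.
Cnot4-Nup205, chr6: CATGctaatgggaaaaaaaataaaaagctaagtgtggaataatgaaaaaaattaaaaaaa
Rexo2-Nnmt, chr9: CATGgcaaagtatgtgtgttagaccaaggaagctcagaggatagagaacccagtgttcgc
Dusp22, chr13: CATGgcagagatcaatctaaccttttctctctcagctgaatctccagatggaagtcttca
near Klf12, chr14: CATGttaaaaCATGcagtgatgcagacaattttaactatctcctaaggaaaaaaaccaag
Igf2r-Mas1, chr17: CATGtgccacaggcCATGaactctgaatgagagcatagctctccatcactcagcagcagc
The second group holds the loci set apart, at chr9:3002076-3002135, chr11:3120377-3120436 and chr14:19332049-19332108.
start of chr9: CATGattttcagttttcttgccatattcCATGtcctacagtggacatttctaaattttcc
Sfi1-Limk2, chr11: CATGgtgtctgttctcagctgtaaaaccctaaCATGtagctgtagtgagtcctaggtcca
Gm21738, chr14: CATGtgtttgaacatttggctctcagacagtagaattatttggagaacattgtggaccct
Each of the 5 sequences of the first group occurred 1 time in the assembled chromosomes on either strand, while the one from chr9:3002076-3002135 occurred 26 times. The sequences of the loci set apart on chr11 and chr14 each occurred 1 time. None of the 8 overlapped an annotated exon. Over the 4 lists, all 888 region edges off chromosome 2 fell on an NlaIII site, so a region can be measured in NlaIII fragments.

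WT naive cells had the most regions and WT Th2 cells the fewest. The lists held 178 regions in the naive list, 104 in the Th0 list, 66 in the WT Th2 list and 96 in the mG900KO list. They covered 23.6 Mb, 13.8 Mb, 8.72 Mb and 12.8 Mb in the same order, or 0.928%, 0.542%, 0.343% and 0.501% of the bases of the chromosomes other than 2. Of all regions in a list, 64.3% were off chromosome 2 in the naive list, 60.5% in the Th0 list, 51.2% in the Th2 list and 56.8% in the mG900KO list. The lists differed in number and little in the size of a region, whose median was 131.0 kb in the naive list, 130.4 kb in the Th0 list, 131.0 kb in the Th2 list and 130.1 kb in the mG900KO list. The longest region, on chromosome 11, spanned 312.8 kb and 1559 fragments in the naive list. No region spanned fewer than 500 fragments, and 46 of 178 in the naive list, 24 of 104 in the Th0 list, 15 of 66 in the Th2 list and 20 of 96 in the mG900KO list spanned exactly 500. The methods name a window of 400 for contacts between chromosomes, so the smallest call was larger than the stated setting. Depth was not recoverable from the lists, and its part in the number of regions was not tested.

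The regions were spread over every chromosome except Y, and the chromosomes with the largest covered share over the 4 lists together were 19, 11 and 17. Joined over the 4 lists, 3.46% of the bases of chromosome 19, 3.24% of chromosome 11 and 3.08% of chromosome 17 lay inside a region. The lists differed in this: chromosome 19 had the highest share in Th0 cells (2.44%) and WT Th2 cells (1.28%), but in naive cells its 0.406% was the lowest apart from X and Y. The lowest shares were 0% on Y, 0.828% on chromosome 3 and 1.26% on chromosome 12. Chromosome 11 was covered by 16, 10, 10 and 7 regions in the naive, Th0, WT Th2 and mG900KO lists, and was the leading chromosome in the naive list. Across the 19 chromosomes other than 2 and Y, the number of protein-coding genes per Mb and the covered share had Pearson's r of 0.53 and Spearman's rho of 0.35 over the 4 lists together. In single lists r was 0.35 for naive, 0.39 for Th0, 0.56 for WT Th2 and 0.42 for mG900KO Th2 cells, and rho was 0.24, 0.22, 0.44 and 0.31. This is a description over chromosomes of the same libraries, and chromosomes that are rich in genes also differ in base composition.

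**Figure D1:**
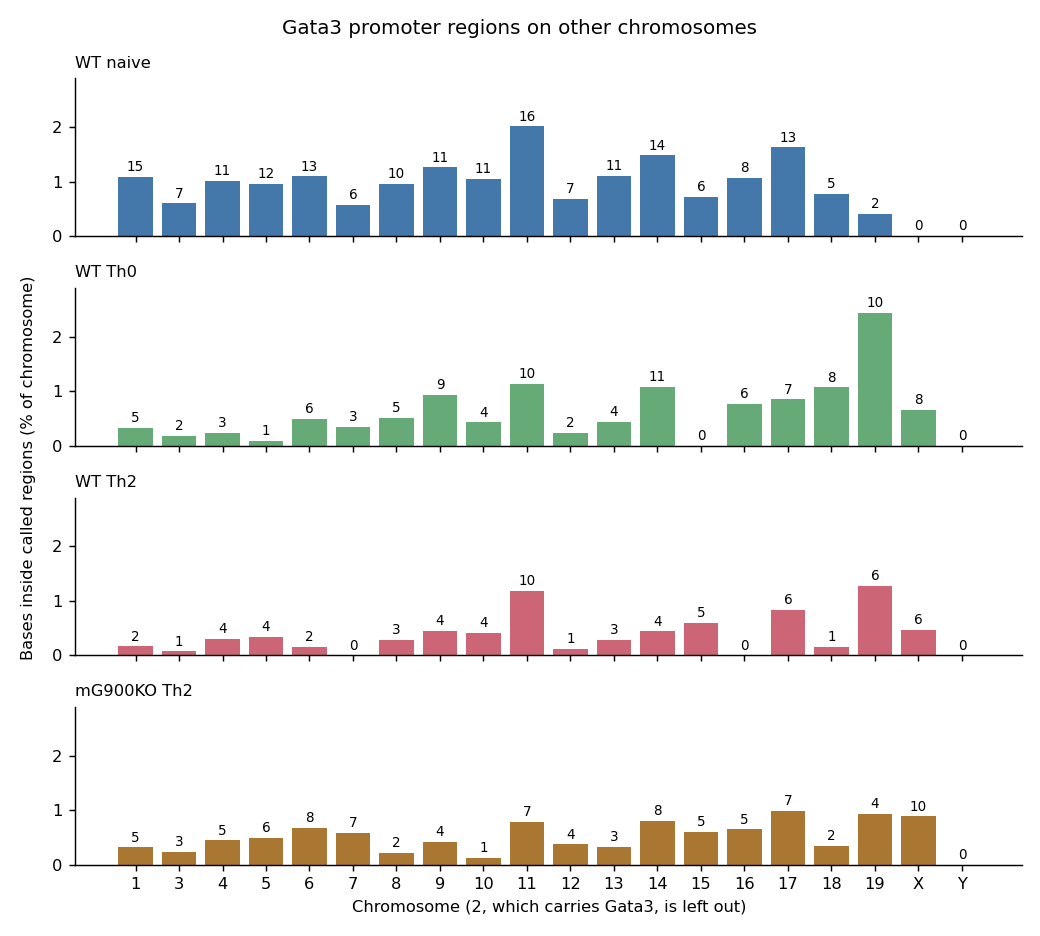
Percent of the bases of each chromosome inside called regions (vertical axis, from 0) in the 4 Gata3-TSS lists, with the number of regions above each bar. Chromosome X is empty in WT naive cells and holds 8, 6 and 10 regions in the 3 libraries of stimulated cells.

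Chromosome X set the naive list apart from the 3 lists of stimulated cells. It held 0 of 178 regions in the naive list, a count of 0 that allows a share of up to 2.05% (exact Clopper-Pearson 95% bound, counting error only). It held 8 of 104 regions in the Th0 list (7.69%), 6 of 66 in the Th2 list (9.09%) and 10 of 96 in the mG900KO list (10.4%), while 6.15% of the NlaIII sites off chromosome 2 are on X. The lower exact bounds of the other lists were 3.38%, 3.41% and 5.11%, all above the upper bound of the naive list. These intervals treat regions as independent draws and hold no spread between libraries. With the mG900 bait, chromosome X held 1 region in each of the 3 lists, or 2.27% in the naive list, 1.47% in the Th0 list and 0.588% in the Th2 list. WT Th2 cells thus had 1 X region with that bait and 6 with the *Gata3* promoter. Regions on X formed 22 loci, and 2 of them were called in 2 or more lists. In 10 of the 22, more than 20% of fragment ends were multi-copy, a measure described further on, against 41.7% of X windows. A pair of lists, WT Th2 and mG900KO Th2, shared *Bcor*, a co-repressor of the Polycomb system, and Th0 and mG900KO Th2 shared *Apool* and *Satl1*. X loci called in 1 list included *Was*, the actin regulator mutated in Wiskott-Aldrich syndrome, in the Th0 list, *Sash3*, a lymphocyte adaptor, in the Th2 list, and *Itm2a*, a T cell membrane protein, in the mG900KO list, all named here after their values were seen.

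Chromosome 19, small and rich in genes, showed a difference of the same direction. It held 2 of 178 regions in the naive list (1.12%, exact interval 0.136% to 4.00%), 10 of 104 in the Th0 list (9.62%, 4.71% to 17.0%), 6 of 66 in the Th2 list (9.09%, 3.41% to 18.7%) and 4 of 96 in the mG900KO list (4.17%, 1.15% to 10.3%). Its share of NlaIII sites was 2.36%. The naive interval lay below that of Th0 cells and overlapped those of Th2 and mG900KO Th2 cells. Both chromosomes were picked here after the values were seen.

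Most loci belonged to 1 list. Of the 337 loci, 264 (78.3%) were called in 1 list, 48 in 2, 17 in 3 and 8 in all 4. Without the 3 loci set apart, 334 loci remained, of which 70 were called in 2 or more lists, 22 in 3 or 4 and 5 in all 4. Naive cells alone gave 122 loci, Th0 cells alone 55, mG900KO Th2 cells alone 51 and WT Th2 cells alone 36. Of the 22 loci in 3 or 4 lists, 21 were called in naive cells, and the exception was the locus of *Ece1*, an endothelin-converting enzyme, and *Eif4g3*, a translation initiation factor, at chr4:137951069-138083451. The naive list is also the largest, so it had the most regions that could recur.

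**Figure D2:**
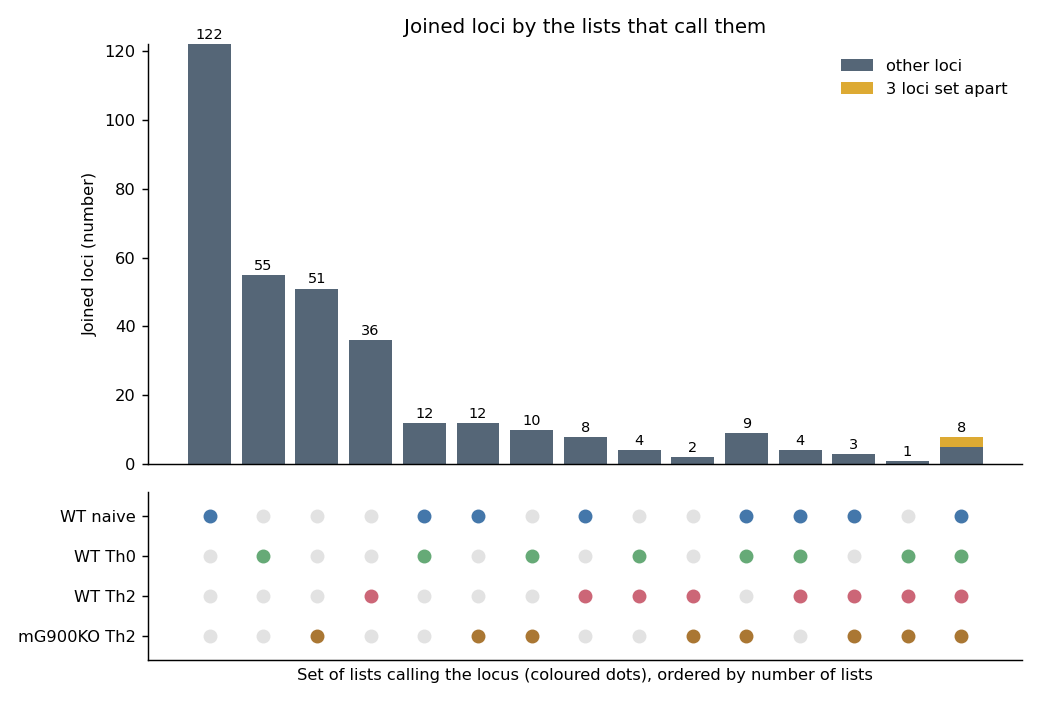
Number of joined loci (vertical axis) for each set of Gata3-TSS lists that calls them, with the 3 loci set apart in yellow. Loci of 1 list stand at the left, led by 122 of WT naive cells alone, and the 8 loci of all 4 lists stand at the right.

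In every pair of lists the share of common regions lay above the share of all windows that the other list covered. This yardstick is the share of all windows of 500 NlaIII fragments off chromosome 2 that overlap a region. Of 23896 windows, it was 1.72% for naive cells, 0.942% for Th0 cells, 0.619% for Th2 cells and 0.904% for mG900KO Th2 cells. Regions were longer than such windows, with list medians of 626 to 651 fragments, and richer in genes and GC. The part of length and composition in the overlap was not tested. Of the 66 regions of WT Th2 cells, 23 (34.8%, exact interval 23.5% to 47.6%) overlapped a naive region, 17 (25.8%) a Th0 region and 14 (21.2%) a region of mG900KO Th2 cells. Of the 96 regions of mG900KO Th2 cells, 32 (33.3%, 24.0% to 43.7%) overlapped a naive region, 28 (29.2%) a Th0 region and 14 (14.6%) a region of WT Th2 cells. Of the 104 Th0 regions, 34 (32.7%) overlapped a naive region. Seen from the larger list, 33, 23 and 32 of the 178 naive regions were shared with Th0, Th2 and mG900KO Th2 cells, or 18.5%, 12.9% and 18%. Without the loci set apart these shares were lower, for example 31.7% of WT Th2 regions with naive cells and 17.5% with mG900KO Th2 cells. With each list reduced to its 66 longest regions, the shares with naive cells were 21.2% for Th0, 18.2% for Th2 and 15.2% for mG900KO Th2 cells, and no list had its highest share with naive cells. At that size Th2 and mG900KO Th2 regions shared most with Th0 cells (19.7% and 22.7%), and Th0 regions with mG900KO Th2 cells (22.7%). With 66 regions per list, 19.7% against 18.2% in Th2 cells and 22.7% against 21.2% in Th0 cells are small differences. They do not settle an order.

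The WT and mG900KO Th2 lists were not the closest pair. Measured as bases in both lists over bases in either, Th0 and mG900KO Th2 cells had the highest value, 14.7%, and WT Th2 and mG900KO Th2 cells the lowest, 8.73%, or 13.2% and 6.54% without the loci set apart. The other 4 pairs lay between 8.89% and 11.8%. The share of mG900KO Th2 regions found in Th0 cells had an exact interval of 20.3% to 39.3%, and that in WT Th2 cells 8.21% to 23.3%. Both shares are counted on the same 96 regions, so the overlap of these intervals does not settle their order. Loci that mG900KO Th2 cells shared with Th0 but not WT Th2 cells numbered 10 without and 9 with naive cells. Those shared with WT Th2 but not Th0 cells numbered 2 and 3. The Th0 list is also larger, with 104 regions against 66, and each list is 1 library. Regions called in no other list still lay near other lists' regions more often than windows did. Within 500 kb of a region of another list were 15 of 122 such regions in naive cells (12.3%, against 7.70% of windows), 17 of 55 in Th0 cells (30.9% against 10.3%), 6 of 36 in WT Th2 cells (16.7% against 10.7%) and 15 of 51 in mG900KO Th2 cells (29.4% against 10.5%). The exact interval excluded the share of windows in Th0 and mG900KO Th2 cells and held it in naive and WT Th2 cells.

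Shared loci often began or ended at the same NlaIII site. Among the 70 loci called in 2 or more lists and not set apart, 42 had at least 1 edge in common between lists and 20 (28.6%) had both. The stretch called in every list that held the locus was 110.3 kb at the median for loci of 2 lists, 102.0 kb for loci of 3 and 119.2 kb for loci of 4. Its smallest value was 8.98 kb, in the *Cnot4* locus.

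The 5 loci of all 4 lists that were not set apart were as follows. At chr14:100413513-100558857 the 4 lists called the identical interval, 145.3 kb and 726 fragments, the only locus with both edges the same in 4 lists. It holds no protein-coding gene, and the nearest, *Klf12*, a zinc finger transcription repressor, lies 128.8 kb away. At chr9:48416165-48594686 the interval was 178.5 kb in WT Th2 cells, 153.7 kb in naive cells and 154.0 kb in Th0 and in mG900KO Th2 cells, with 153.7 kb in common. All 4 intervals held *Rexo2*, a mitochondrial exonuclease of short RNAs, and *Rbm7*, an RNA-binding factor of the nuclear exosome, and the WT Th2 interval alone reached *Nnmt*, which methylates nicotinamide. The edges of these loci are the chr14 and chr9 sequences of the first group above.

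At chr17:12694472-12864428 the intervals were 132.5 kb in naive, 119.2 kb in Th0, 123.6 kb in WT Th2 and 161.0 kb in mG900KO Th2 cells. All 4 intervals lay over part of *Igf2r*, the imprinted receptor for mannose 6-phosphate and IGF2, and of *Airn*, the noncoding RNA transcribed against it, and the mG900KO interval alone reached *Mas1*. At chr13:30546691-30732069, which holds *Dusp22*, a phosphatase that acts on the T cell kinase Lck, the intervals were 132.9 kb in naive and in Th0 cells, 97.1 kb in WT Th2 cells and 185.4 kb in mG900KO Th2 cells. At chr6:35031633-35227449, which holds *Cnot4*, a ubiquitin ligase of the CCR4-NOT system, and *Nup205*, a nuclear pore protein, the intervals were 105.0 kb, 160.6 kb, 96.6 kb and 108.2 kb in the naive, Th0, WT Th2 and mG900KO lists. *Cnot4* was reached in all 4 lists, and *Nup205* in Th0 and WT Th2 cells. Only 8.98 kb of the locus were called in all 4. An overlap of at least 50% of the shorter region, in place of 1 base, left the number of loci in all 4 lists at 8. That setting asks for 50% with any 1 other region of the locus, so it does not show that all 4 lists share the locus by that much.

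**Figure D3:**
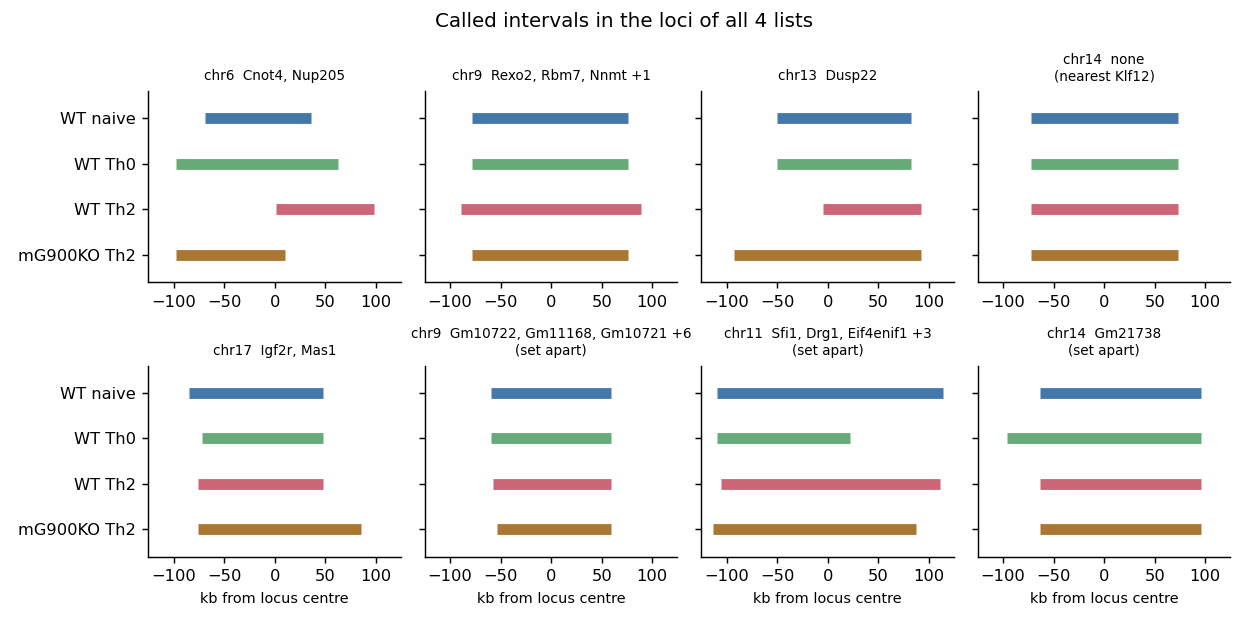
Called intervals of the 8 loci of all 4 lists, 1 bar per library, in kb from the centre of the joined locus (horizontal axis). The 4 bars coincide on chr14 near Klf12, and on chr6 the part common to all 4 bars spans 8.98 kb.

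The 3 loci set apart differed from these 5 in their repeats and in the mG900 lists. A fragment end was counted as multi-copy when its 30 bases at the NlaIII site occurred more than once in the assembled chromosomes. Multi-copy ends made up 71.6% of the ends on chr9, 53.5% on chr14 and 14.6% on chr11 in the loci set apart, against 2.53% to 10.4% in the other 5 loci and a median of 9.70% over 1195 windows, whose quartiles were 5.80% and 16.05%. By this measure the chr11 locus was an ordinary stretch and the chr9 and chr14 loci were not. The chr9 locus lies 2.08 kb from an assembly gap at the start of the chromosome, and the chr14 locus contains one. The chr11 locus, 20.4 kb from a gap, reached *Sfi1*, *Drg1* and *Eif4enif1* in all 4 *Gata3*-TSS lists, and *Patz1* in naive, WT Th2 and mG900KO Th2 cells. In naive and WT Th2 cells alone it reached *Limk2* and *Pik3ip1*, of which *Pik3ip1* restrains PI3K signalling in T cells. The chr9 and chr11 loci were called in all 3 lists of the mG900 bait and the chr14 locus in 2 of them, whereas the other 5 loci were called in 0 of the mG900 lists. The rule that set the 3 loci apart was written with earlier results of these data known. The contrasts in repeats and in the mG900 lists can follow from that choice and are descriptions only. Whether multi-copy sequence brings about these calls was not tested. By their medians, repeats did not mark the members in general: the median over all autosomal loci not set apart was 7.32%, below the 9.0% of autosomal windows, and on X it was 19.1% in loci and 17.4% in windows. More than 20% multi-copy ends were found in 9 of these 312 autosomal loci (2.89%), against 12.2% of autosomal windows. On X they were found in 10 of 22 loci (45.5%), against 41.7% of X windows. The highest X locus had 82.0%, above each of the loci set apart.

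The 10 longest loci of exactly 3 lists included 2 with a gene of the T cell lists described further on, those of *Cd3e* and *Tcf7*. The longest, 404.1 kb at chr11:11553052-11957144, lies over *Ikzf1*, which encodes the lymphoid transcription factor Ikaros, and, in naive and Th0 cells, over *Fignl1*, *Ddc* and *Grb10*. It was called in naive cells as 1 region of 312.8 kb, in Th0 cells as 2 regions of 152.5 kb and 150.9 kb, in WT Th2 cells as 1 region of 154.8 kb, and not in mG900KO Th2 cells. The body of *Ikzf1* lay wholly inside the naive region, while the Th0 and WT Th2 regions covered 23.3% and 26.0% of it, and the nearest region of mG900KO Th2 cells was 5319 kb away.

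The next longest, 220.2 kb at chr9:44940613-45160803, holds the gene cluster of *Cd3g*, *Cd3d* and *Cd3e*, the signalling chains of the T cell receptor, with *Ube4a*, *Mpzl2*, *Mpzl3*, *Jaml*, *Scn2b* and *Scn4b*. Naive cells called all of it, and Th0 and mG900KO Th2 cells called the same 152.2 kb, which reach 9.71% of *Cd3e* and neither *Cd3d* nor *Cd3g*. In WT Th2 cells the nearest region was 3407 kb from *Cd3e*. The locus of 209.9 kb at chr11:52194434-52404345 holds *Tcf7*, which encodes the naive T cell factor TCF-1, with *Skp1a*, a ubiquitin ligase subunit, in the same lists. It was called in naive cells (209.9 kb), WT Th2 cells (152.9 kb) and mG900KO Th2 cells (164.2 kb), each with all of *Tcf7*, and the nearest Th0 region was 2822 kb away.

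The other 7 among the 10 longest, like that of *Ikzf1*, held no gene of those lists. The loci of *Peli1*, a ubiquitin ligase that restrains T cell activation, at chr11:21005403-21167818 and of *Pcgf5*, a Polycomb subunit, at chr19:36284243-36489590 were called in naive, Th0 and WT Th2 cells. The loci of *Pde7a*, a phosphodiesterase of cyclic AMP found in T cells, at chr3:19244570-19412980, of *Tprg* at chr16:25305926-25486232 and of *B3gnt2* at chr11:22777829-22968551 were called in naive, Th0 and mG900KO Th2 cells. In the *B3gnt2* locus, *Commd1* was reached in Th0 and mG900KO Th2 cells and not in naive cells. Naive, Th0 and mG900KO Th2 cells also called chr7:12868457-13072657, with 12 protein-coding genes including *Trim28*, a co-repressor of zinc finger proteins, and chr19:5382186-5536779, with 13 including the AP-1 gene *Fosl1* and the actin-severing factor gene *Cfl1*. So 6 of the 10 longest combined naive, Th0 and mG900KO Th2 cells without WT Th2 cells. Of all 17 loci of exactly 3 lists, 9 had this set, and WT Th2 is the smallest list. Of these 10 the *Pde7a* locus was the only one called with the mG900 bait, in Th2 cells.

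A pair of shorter loci of 3 lists held no protein-coding gene and are named after their values were seen. The one at chr17:52067406-52213424, called in naive, WT Th2 and mG900KO Th2 cells, lies 234.1 kb from *Satb1*, a chromatin organizer of T cells. The one at chr8:34505319-34652449, called in naive, Th0 and WT Th2 cells and in the mG900 list of Th2 cells, lies 154.8 kb from *Dusp4*, a MAP kinase phosphatase.

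**Figure D4:**
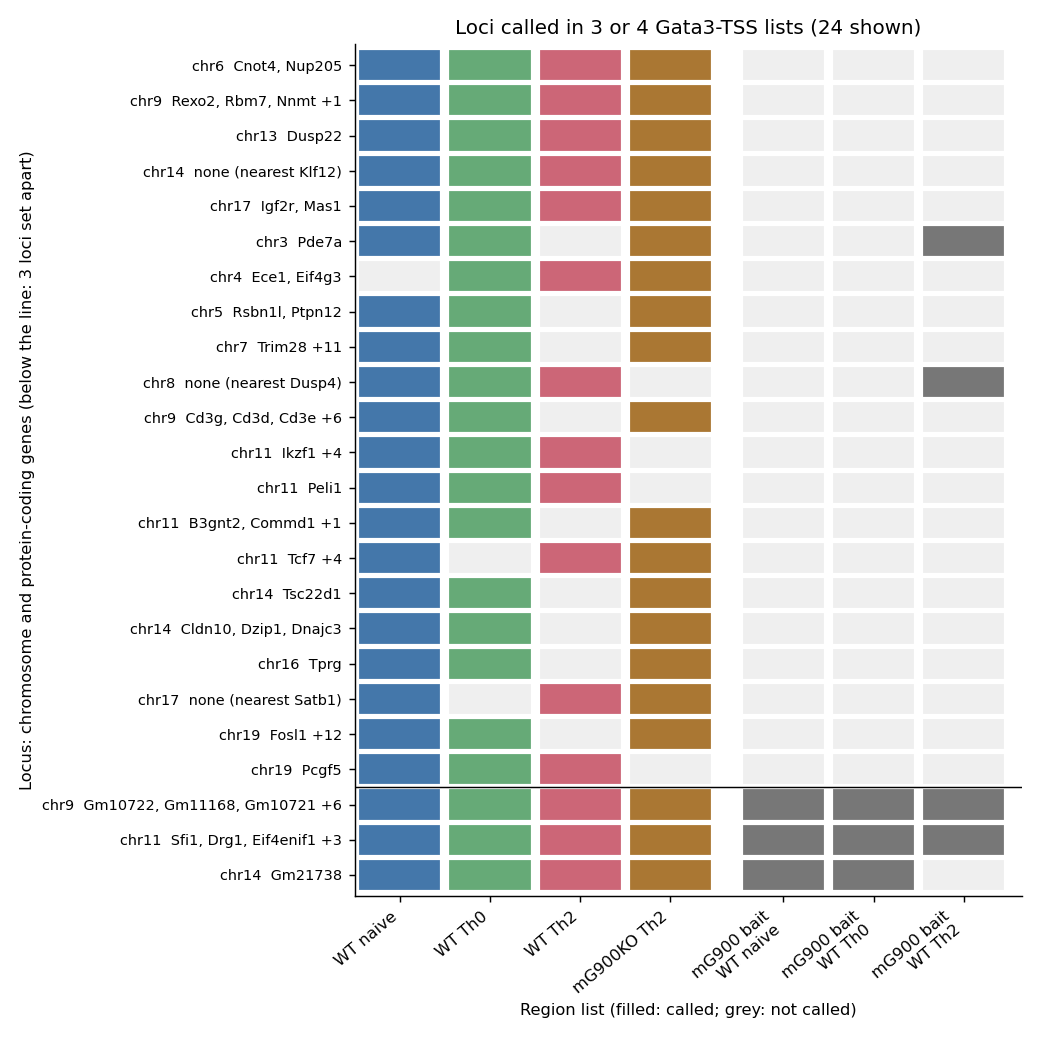
Loci called in 3 or 4 Gata3-TSS lists (24 shown), each with its chromosome and protein-coding genes, against the 4 Gata3-TSS lists and the 3 lists of the mG900 bait (filled where called). Below the line, the 3 loci set apart are filled in most mG900 lists, while 2 of the 21 above it are filled in the mG900 list of Th2 cells.

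Both Th2 lists, and neither naive nor Th0 cells, called 2 loci, against the 36 of WT Th2 cells alone and the 51 of mG900KO Th2 cells alone. At chr19:7435878-7599657, with *Rtn3*, *Atl3*, *Pla2g16* and *Lgals12*, the intervals were 163.3 kb in WT and 163.8 kb in mG900KO Th2 cells. At chrX:12024622-12201698, with *Bcor*, they were 161.9 kb and 177.1 kb. In all, WT Th2 and mG900KO Th2 cells had 14 loci in common, 11 without those set apart, and 9 of these 11 were also called in naive or Th0 cells.

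Among loci of 1 list, the 3 longest per library were as follows. Naive cells alone called 232.3 kb at chr4:136137318-136369577 with *Id3*, an inhibitor of E proteins that acts in naive T cells, and *E2f2*, 193.8 kb at chr7:75648488-75842258 with *Akap13*, and 179.6 kb at chr9:60718324-60897911 with *Larp6* and *Uaca*. Th0 cells alone called 286.8 kb at chr19:6669976-6956748 with 10 genes including *Esrra*, *Bad* and *Plcb3*, 234.0 kb at chr11:34458177-34692169 with *Dock2*, a Rac activator of lymphocytes, and 220.4 kb at chr7:16167930-16388343 with *Bbc3*, a cell death gene, and *C5ar1*. WT Th2 cells alone called 167.8 kb at chr10:4332563-4500323 with *Akap12* and *Zbtb2*, 163.2 kb at chr11:23184267-23347457 with the nuclear export receptor gene *Xpo1*, and 160.6 kb at chr10:42427087-42587690 with *Snx3* and *Ostm1*. The longest of mG900KO Th2 cells alone were 192.0 kb at chrX:8184326-8376281 with *Porcn*, 175.8 kb at chr17:23672056-23847875 with 16 genes including *Srrm2*, and 170.3 kb at chr16:4559502-4729759 with *Tfap4* and *Coro7*. The *Akap13* and *Akap12* loci were also called with the mG900 bait in Th2 cells, and the *Tfap4* locus with that bait in Th0 and Th2 cells.

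The regions were rich in genes and in GC in every list. They held 15.0 starts of protein-coding genes per Mb in naive cells (355 starts, exact Poisson 95% interval 13.5 to 16.7), 15.3 in Th0 cells (211 starts, 13.3 to 17.5), 17.3 in WT Th2 cells (151 starts, 14.7 to 20.3) and 15.5 in mG900KO Th2 cells (198 starts, 13.4 to 17.8). Over all chromosomes but 2 the value was 7.90 per Mb. Each of the 4 values lay above that level by more than its counting interval, and the 4 intervals overlapped one another. With the mG900 bait the regions held 9.02 starts per Mb in naive, 9.59 in Th0 and 12.7 in Th2 cells. Neighbouring genes share a region, so starts are not independent draws and the intervals, which treat them as such, are too narrow.

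Of the 337 loci, 75.4% had more GC than the median window and 35.9% more soft-masked repeat bases. At least 1 start of a protein-coding gene lay in 73.9% of loci and in 41.1% of windows, although a locus spans at least the 500 fragments of a window and is often longer. The median GC was 44.0% in loci and 41.2% in windows, and soft-masked bases made up 29.2% and 32.3%. NlaIII sites per kb, the property on which the assay rests, were above the median window in 51.3% of loci. No part of a protein-coding gene lay in 43 of 337 loci (12.8%). Recurrence did not go with gene content in one direction: the pooled rate was 15.4 starts per Mb in loci of 1 list, 14.03 in loci of 2, 18.4 in loci of 3 and 8.0 in the 5 loci of all 4 lists that were not set apart. GC and gene density vary together along chromosomes, and their parts were not separated.

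**Figure D5:**
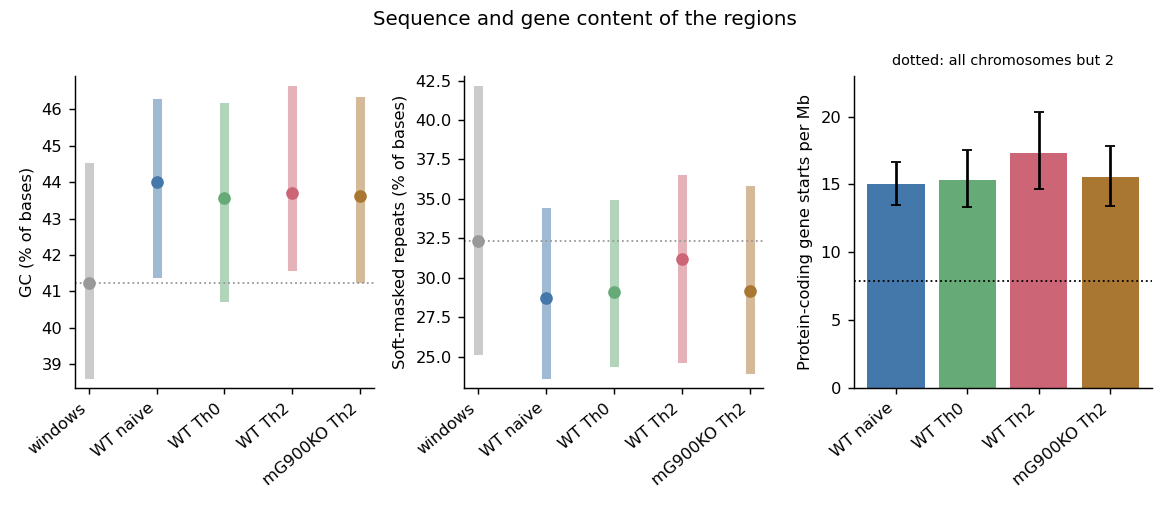
GC and soft-masked repeats (points are medians, thick lines the quartile range, in percent of bases) of all windows of 500 NlaIII fragments and of the regions of each list, and gene starts per Mb of regions (bars from 0, with exact Poisson 95% intervals). All 4 lists lie above the windows in GC and above the dotted level of 7.90 in gene starts, while their repeat medians lie below that of the windows.

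Among 20095 protein-coding genes off chromosome 2, 2.23% overlapped a region of naive cells, 1.32% of Th0 cells, 0.911% of WT Th2 cells and 1.22% of mG900KO Th2 cells, 4.39% a region of any list and 0.901% regions of 2 or more lists. Of the 24 genes of T cell receptor signalling counted here, 6 (25%) lay in a region of any list, 5 in naive, 1 in Th0, 0 in WT Th2 and 3 in mG900KO Th2 cells. The 24 are not all genes of that pathway, so the 0 does not mean that none of its genes lay in a WT Th2 region. They were not independent, as the 3 CD3 genes share 1 locus. The others were *Cd28*, the co-stimulatory receptor, and *Lck* and *Fyn*, the Src family kinases that start the signal of the T cell receptor. *Lck* was inside a region of mG900KO Th2 cells alone and *Fyn*, with 60.8% of its body, of naive cells alone.

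*Cd28* and its neighbour *Ctla4*, the inhibitory receptor that binds the same ligands, were called in different Th2 lists. *Cd28* lay inside chr1:60686453-60833931 in naive and in mG900KO Th2 cells. *Ctla4* lay inside chr1:60861159-60969350 in naive cells and chr1:60871606-60969350 in WT Th2 cells. The WT Th2 region lay 98.2 kb from *Cd28*, the mG900KO region 53.1 kb from *Ctla4*, and the nearest Th0 region 13847 kb from *Cd28*. Both genes were thus called in naive cells, and 1 of them in each Th2 list.

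Of 17 genes of naive T cell quiescence, *Tcf7* and *Lef1*, partner transcription factors of the naive state, lay in regions (11.8%). *Lef1* was called with 89.3% of its body at chr3:131057188-131212135 in naive and in mG900KO Th2 cells. Of 25 Th2 genes off chromosome 2, 1 (4.00%) was called, *Il10*, in naive cells, at chr1:130931283-131065657, and of 14 genes of Th17 and Treg cells 1, *Ctla4*. Of 18 Th1 genes and of 15 activation genes, 0 were called. Of 23 partners of GATA factors and architectural proteins 1 was called, *Zfpm1*, which encodes the GATA cofactor FOG-1, with 73.7% of its body at chr8:122296617-122420930 in WT Th2 cells, and the nearest regions of the other lists were 2119 kb or more away. Over all these lists 11 of 134 genes (8.21%) were called, against the 4.39% of all protein-coding genes. The lists of Th2, Th1 and activation genes were at or below that share. Lists of 15 to 25 genes are too short to tell a share of 0 from one near it.

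The Th2 cytokine cluster on chromosome 11 was called in no list. For *Il4*, the signature cytokine of Th2 cells, the nearest region lay 1173 kb away in naive cells, 1487 kb in Th0 cells, 1155 kb in WT Th2 cells and 1199 kb in mG900KO Th2 cells. For *Il13* these distances were 1157, 1471, 1139 and 1227 kb, for *Rad50* 1085, 1398, 1066 and 1245 kb, and for *Il5* 1067, 1380, 1048 and 1316 kb. The nearest regions were those at chr11:54791921-54928289 in naive cells, chr11:55105436-55193754 in Th0 cells and chr11:54773546-54883556 in WT Th2 cells, and the *Tcf7* region in mG900KO Th2 cells. For *Ifng*, the Th1 cytokine on chromosome 10, the nearest region lay 521.4 kb away in naive cells and 18941 kb, 43729 kb and 57322 kb away in Th0, WT Th2 and mG900KO Th2 cells.

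Receptor genes of the nose, which are silent in T cells, were almost absent from the regions. Of 840 olfactory receptor genes 1 (0.119%) was called, *Olfr1371*, which lies in the *Tcf7* locus, and of 330 vomeronasal receptor genes 0. Of 369 genes named Zfp, which include *Zfpm1*, 13 (3.52%) were called, of 98 histone genes 1, of 68 protocadherin genes 1 and of 30 Hox genes on other chromosomes 0. Genes of such families lie in clusters, so a count of genes stands for far fewer independent places.

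Loci were called with the mG900 bait more often than windows, though most were not. Of the 337 loci, 32 overlapped a region of the mG900 lists, against 2.57% of windows of 500 fragments. Median lengths were 127.7 kb for loci of 1 list, 147.6 kb for 2, 162.4 kb for 3 and 182.0 kb for 4. The median window spanned 103.15 kb, and the part of length in these shares was not tested. The share was 8.33% of loci of 1 list (22 of 264, exact interval 5.30% to 12.3%), 10.4% of loci of 2 lists, 11.8% of loci of 3 and 37.5% of loci of 4, the last being the 3 loci set apart alone. Those 3 loci were set apart with earlier results of these data known. Of the 29 others, 23 were called with the mG900 bait in WT Th2 cells alone, which is also the largest mG900 list with 170 regions off chromosome 2. Without the loci set apart, Th0 regions shared 10 of 101 with that list, WT Th2 regions 6 of 63, naive regions 10 of 175 and mG900KO Th2 regions 6 of 93. So regions of the mG900 bait in Th2 cells met 9.52% of the *Gata3* promoter regions of WT Th2 cells and 9.90% of those of Th0 cells, with exact intervals of 3.58% to 19.6% and 4.85% to 17.5%. The baits sit on the same chromosome, and neither the shared chromosome territory nor the GC content that the lists have in common was separated from this overlap.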

How the data were processed

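The 4C-seq libraries, 4 with *Gata3*-TSS and 3 with an mG900 region as bait, were cut with NlaIII. The methods name BglII as the second enzyme for *Gata3*-TSS and a NovaSeq, where the labels name DpnII and a NextSeq. The authors called interacting regions with w4Cseq (size_inter 400 and a false discovery rate of 0.05, 1 list per library) and deposited other values than counts, namely the start and end of each region on mm10, so depth is unknown and no strength can be compared. The aligner for 4C-seq is not given in the sources used here. How many regions are called can depend on depth.

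Regions off chromosome 2 were joined when they shared at least 1 base. Genes were those of GENCODE vM21 on GRCm38, and the background was windows of 500 NlaIII fragments with under 50% unknown bases. Multi-copy ends were counted by exact matches of 30 bases on both strands of the assembled chromosomes, in the loci and in 1 of every 20 windows. Intervals are exact (Clopper-Pearson for shares, Poisson for rates, 95%) and cover counting error only. With 1 library per condition no test was made.

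The named loci are all those of 4 lists, the 10 longest of 3 lists, those of both Th2 lists alone, the 3 longest of each list alone, listed genes inside regions, the 3 highest and lowest chromosomes, and the Th2 cytokine cluster and *Ifng*. A withheld item is not reported here. Others are marked as chosen after their values were seen. The members, the gene lists and the rule were chosen with earlier results of these data known. The alternatives were a length filter, loci left out, equal list sizes, joining within 100 kb, an overlap of 50%, each list left out, gene starts, all annotated genes and windows of 400 fragments, with windows of 650 fragments and the omission of chromosome X added after the data were seen. Joining and overlaps were tested on simulated data, with 200 of 200 draws equal to a count base by base. Python 3.11.15, NumPy 2.4.6, SciPy 1.17.1, Numba 0.67.0 and Matplotlib 3.10.9 were used.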

Additional observations from a re-analysis of the deposited data

Results flagged for a closer look

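The number of regions off chromosome 2 moved in opposite directions between WT naive and WT Th2 cells with the 2 baits. Without the loci set apart, the *Gata3*-TSS lists held 175 regions in naive cells and 63 in WT Th2 cells, a ratio of 0.360, and the mG900 lists held 41 and 168, a ratio of 4.10. The difference between the baits was not tested, since each condition is 1 library, and the part of depth in it was not tested.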

How the results depend on the processing

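Of 194 values computed under alternatives for 34 results, 149 stayed within the counting interval of the original value (or within 1.5 times a count) and 45 did not, 39 of them lower. Regions of at least their list's median length numbered 89 naive, 52 Th0, 33 WT Th2 and 48 mG900KO Th2, and formed 172 loci, 34 of them in 2 or more lists and 4 in all 4. This filter gave 1.35%, 0.786%, 0.433% and 0.766% of genes inside regions in that order, 14.6 gene starts per Mb for WT Th2 and 18.1 for mG900KO Th2, 79.7% of loci with a gene start and 42.4% above the median window in NlaIII sites, 5.07% of loci of 1 list called with the mG900 bait and 1.39% of windows. Equal list sizes gave 209 loci, 40 in 2 or more lists and 4 in all 4, 1.06% (naive), 0.936% (Th0) and 0.921% (mG900KO) of genes, 16.8 gene starts per Mb in naive cells, 79.4% of loci with a gene start, and shares with the naive list of 21.2% (Th0), 18.2% (WT Th2) and 15.2% (mG900KO). These filters lower counts by their construction. Without the loci set apart, 5 loci were in all 4 lists. Genes counted by their start gave 1.77%, 1.05%, 0.751% and 0.985% for naive, Th0, WT Th2 and mG900KO Th2, and all annotated genes 1.61%, 0.961%, 0.616% and 0.887%. An overlap of at least 50% of the shorter region gave 5.26% of loci of 1 list called with the mG900 bait and 1.48% of windows, a share that was 2.36% for windows of 400 fragments, 2.91% for 650 and 2.80% without chromosome X. Leaving out the naive list gave 216 loci, 41 in 2 or more lists, and leaving out the Th0 list 47 in 2 or more. Joining regions at most 100 kb apart moved none of its 19 values. No paired analysis was possible because each condition has 1 library. The lists carry no depth, so a region missing from a list was not detected at an unknown depth, not shown to be absent.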
